A study of Mus musculus with 9 samples.

Results

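The regions described here are 552 short stretches of mouse DNA at which engaged RNA polymerase was higher 15 min after doxycycline than both before it and at 30 min. They were chosen by their levels in CPM (a region's reads scaled to the library's total over all regions). A member had a mean of at least 20 reads over the 9 libraries, and its 3 CPM values at 15 min all lay above its 3 at 0 min and its 3 at 30 min, an order that 3.56% of all 54299 tested regions also showed. Its mean at 15 min was at least 1.5 times the 0 min mean and at least 1.4 times the 30 min mean. Of 174289 regions 32891 had enough reads, and 552 of these (1.68%; 0.317% of all regions) were members. Because the rule used the values at all 3 times, the size of the rise and of the return is given below as a description. Counts of calls on these values stand beside the share over all regions, and nothing is read from them.

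The cells were mouse embryonic stem cells of 1 genotype, a knockout of Firre, the X-linked gene of a nuclear long non-coding RNA, with a Firre transgene that doxycycline switches on. Untreated cells (0 min, 0 ng/μL) were compared with cells given doxycycline at 1 ng/μL for 15 or 30 min, with 3 libraries at each time, and all nuclei were mixed with 1% Drosophila S2 nuclei. No group received doxycycline without the transgene, so the drug and Firre RNA cannot be told apart, and the labels name neither clones nor separate cultures. The spread between libraries may therefore be technical.

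PRO-seq (precision run-on sequencing) lets polymerases that are already on DNA add a labelled nucleotide, so its reads mark transcription in progress and not stored RNA. A polymerase that has passed the end of a gene does not stop at once: the transcript is cut and given its poly(A) tail, while the polymerase runs on, often for kilobases, until it is released. Reads beyond annotated 3′ ends are therefore a usual feature of such data, beside those of promoters and enhancers, where transcription starts in both directions. The regions here are places that a model of such divergent transcription marked, each counted in a window of 600 bp, and the strand counted is not given in the sources used here.

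Reads in the regions came to between 3813365 and 5980366 a library. The embryonic stem cell markers with a region, among them Sox2, Nanog and Klf4, were measured in every library (8 of 10 genes, all with at least 5 CPM, summed to 1799 to 1992 CPM), while those of feeder fibroblasts summed to at most 3.18 CPM over the 2 of 8 genes with a region. The 8 regions of Firre summed to 3.38 ± 1.38 CPM at 0 min, 293 ± 38.8 at 15 min and 784 ± 17.3 at 30 min (mean ± SD, n = 3 libraries), so Firre was higher again at 30 min, and 0 of its regions were members. In bulk samples, a change in the number of cells that transcribe a region and a change per cell cannot be told apart, and CPM is a share of the mouse reads in regions, not an absolute amount. Library 3 at 15 min stood apart on principal component 2, at 85.6 against -55.1 to 16.5 for the other 8. It held the lowest of the 3 values at 15 min in 291 members (52.7%). With this library left out, the rule took 981 regions, of which 499 were members. At the other end of principal component 2 lay library 2 at 0 min, at -55.1, with the next library at -26.9. On principal component 1 it was at -37.4, against -80.7 and -77.9 for libraries 1 and 3 at 0 min. Its title lacks the word dox that theirs hold, although all 3 are listed at 0 ng/μL. Without it the rule took 634 regions, of which 530 were members.

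In all, 12 annotated promoters (the 250 bases before a start) lay wholly inside members' windows. Of these, 3 are shown, picked after they were searched: H1f1 as the promoter with the highest level at 15 min, H2ac1 for its many matches and Ptrh2 for having none. The sequences are RefSeq's on GRCm38.p6, 5′ to 3′ in the gene's direction, and capitals mark matches to any of 6 motifs searched on both strands. These were the TATA box as TATAAA, the CCAAT box, the GC box as GGGCGG, the E-box as CACGTG, the octamer as ATTTGCAT and the cyclic-AMP element as TGACGTCA.
H1f1, chr13:23763418-23763667, plus strand: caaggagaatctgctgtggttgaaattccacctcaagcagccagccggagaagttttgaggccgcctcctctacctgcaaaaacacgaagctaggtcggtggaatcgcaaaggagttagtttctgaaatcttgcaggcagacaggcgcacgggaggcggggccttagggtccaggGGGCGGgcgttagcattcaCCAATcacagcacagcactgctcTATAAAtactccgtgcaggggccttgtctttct
H2ac1, chr13:23934187-23934436, plus strand: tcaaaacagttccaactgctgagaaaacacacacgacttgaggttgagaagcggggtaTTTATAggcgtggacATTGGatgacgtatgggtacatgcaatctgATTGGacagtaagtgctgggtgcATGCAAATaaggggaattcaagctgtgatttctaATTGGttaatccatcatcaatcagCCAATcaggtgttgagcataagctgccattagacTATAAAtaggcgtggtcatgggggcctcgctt
Ptrh2, chr11:86683824-86684073, plus strand: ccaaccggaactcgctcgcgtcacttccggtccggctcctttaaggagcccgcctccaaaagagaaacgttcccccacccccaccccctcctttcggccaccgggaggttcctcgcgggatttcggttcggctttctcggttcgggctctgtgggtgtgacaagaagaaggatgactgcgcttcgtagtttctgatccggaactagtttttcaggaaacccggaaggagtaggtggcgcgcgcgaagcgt

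The H1f1 promoter, of a linker histone gene, holds TATAAA at -33, CCAAT at -56 and GGGCGG at -75, counted from the start site. That of H2ac1, a histone gene that faces H2bc1 across the same window, holds TATAAA at -32 and -192, CCAAT at 4 places and the octamer ATTTGCAT, the site of POU factors known from histone promoters, at -124. The Ptrh2 promoter, which faces that of the autophagy gene Vmp1, holds none of the 6. Among 32851 RefSeq promoters of this length, 12.4% hold TATAAA, 33.8% CCAAT and 1.60% ATTTGCAT, against 4, 6 and 2 of the 12 here. GGGCGG is held by 32.7% and by 5 of the 12, CACGTG by 6.02% and TGACGTCA by 1.55%, and by 0 of the 12. The 12 lie in 9 windows, and the promoters of H2ac1 and H2bc1 overlap. The same octamer and shared matches to TATAAA and CCAAT are therefore counted in both. The promoters of Vmp1 and Ptrh2 overlap too, as do those of Yipf3 and Polr1c. Most members lay far from any start site, and their own sequences are not printed, since no genome was used here.

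The members took 0.689 ± 0.0473% of the reads in regions at 0 min, 1.43 ± 0.0951% at 15 min and 0.818 ± 0.0244% at 30 min (mean ± SD, n = 3 libraries). The level of the median member was 6.86 ± 0.354 CPM, then 14.7 ± 1.10, then 8.30 ± 0.131. The ratio of the 15 min to the 0 min mean had a median of 1.98 and ran up to 10.7. It was at least 2 in 264 members (47.8%), at least 3 in 63 (11.4%) and at least 4 in 22 (3.99%). From 15 to 30 min the members lost a median of 82.7% of what they had gained, and the mean at 30 min was at or below that at 0 min in 116 (21.0%).

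**Figure D1:**
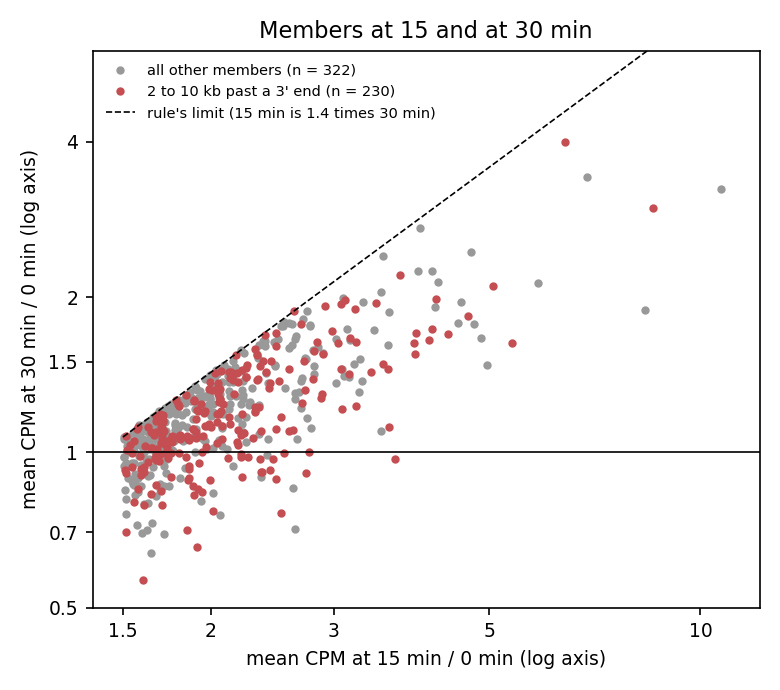
Each point is 1 of the 552 members, with the ratio of its mean CPM at 15 min to 0 min on the horizontal axis and at 30 min to 0 min on the vertical axis (both log axes), and red points lie 2 to 10 kb past the 3′ end of a coding gene. The dashed line is the limit that the rule sets, and the median on the vertical axis is 1.17.

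The rule placed no limit on 30 against 0 min alone, although it used the libraries of both times. The ratio of these means had a median of 1.17 over members (0.565 to 3.99), against 0.973 over the other 32339 regions with enough reads. In 140 members (25.4%) all 3 libraries at 30 min lay above all 3 at 0 min, and in 11 (1.99%) all lay below. Over all 54299 tested regions these shares were 10.5% and 9.91%. The other 401 members overlapped between the 2 times. By edgeR's quasi-likelihood test with Benjamini-Hochberg adjustment over all tested regions, 31 members (5.62%) were higher at 30 than at 0 min, against 1.24% of all tested regions. As the rule drew on the values of both times, these counts are a description only. The count fell to 7 when 0 min library 1 was left out and to 19 for 0 min library 3. For 30 min libraries 1, 2 and 3 it was 12, 16 and 10. It became 50 when libraries were scaled on gene ends alone.

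The same fit gives the size of the contrasts that the rule used, with nothing to be read from them. It called 431 members (78.1%) higher at 15 than at 0 min, where 4.29% of all tested regions were higher, and 190 (34.4%) lower at 30 than at 15 min, where 0.49% were lower. With 15 min library 1 or 2 left out the 190 became 128 or 105, and with 30 min library 1, 2 or 3 left out 116, 90 or 126. With 15 min library 3 left out the 2 counts were 419 and 201. At the limits of the rule, the members just inside the ratio of 1.5 were near Gm26644 and Zfp808, at 1.503 and 1.504, and the regions just outside were near Ubn2 and A430085M09Rik, at 1.499 and 1.497. At the limit of 1.4 to the 30 min mean, the members near Gm5795 and Crybb3 had 1.401 and 1.403, and the regions left out near Gm39286 and Gm33340 had 1.399 and 1.398. At the limit on reads, members near Ripor3 and A430085M09Rik had a mean of 20 reads, and regions near Gm36752 and Macroh2a1 had 19.9. The ratio to 30 min lay within 10% above its limit in 170 members and within 10% below it in 159 other regions.

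The 12 largest ratios belonged to regions with means of 1.07 to 11.1 CPM at 0 min, where the median over all members was 6.66. A region inside Eml6, at chr11:29762917-29763516, lies 18.8 kb past the 3′ end of the neighbouring gene Rtn4, which encodes a protein of the tubular endoplasmic reticulum. Its CPM was 1.09, 3.61 and 1.05 in the 3 libraries at 0 min, 21.9, 24.7 and 14.9 at 15 min, and 4.45, 6.49 and 7.71 at 30 min. It had the largest ratio of 15 to 0 min, 10.7, and at 30 min all 3 libraries were still above those of 0 min, as in all 12 members of largest ratio. This order held in 25.4% of all members and in 10.5% of all tested regions. Ranking by the ratio to 0 min favours low values at 0 min, so nothing is read from the 12.

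The region inside Dupd1 at chr14:21680919-21681518 lies 8.74 kb past the end of Kat6b, a histone acetyltransferase gene. It had 4.17, 8.58 and 9.96 CPM at 0 min, 61.5, 77.9 and 54.7 at 15 min, and 23.3, 19.6 and 24.5 at 30 min. The ratio was 8.55 at 15 min, and 2.97 was left at 30 min. Between Slc45a3 and Nucks1, 14.1 kb past the end of Nucks1, a region went from 1.27, 0.904 and 1.05 CPM to 7.36, 12.2 and 7.31 and then to 2.04, 2.41 and 1.64. It had the largest fall from 15 to 30 min, with a ratio of 4.41.

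Others of the 12 largest ratios also lay past 3′ ends. Arih1 encodes a ring-between-ring ubiquitin ligase, and a region 3.72 kb past its end (chr9:59384537-59385136) had 6.16, 8.13 and 3.15 CPM, then 38.5, 42.6 and 30.7, then 26.7, 18.5 and 24.3. This member kept the most at 30 min, 3.99 times its 0 min mean. Past Trip12, which encodes a HECT-type ubiquitin ligase, the region at 3.93 kb had a mean of 3.54 CPM at 0 min, 17.9 at 15 min and 7.45 at 30 min. The region 10.9 kb past Cul3, the scaffold of a family of ubiquitin ligases, had 6.80, 32.0 and 16.6 CPM.

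A region 9.12 kb past the end of Arhgap5 (chr12:52580797-52581396) had 7.43, 13.8 and 12.1 CPM, then 64.5, 63.5 and 51.2, then 16.3, 18.7 and 19.2. The region 10.1 kb past Myo10, which encodes a myosin of filopodia, had means of 4.94, 24.5 and 7.28 CPM. That 10.3 kb past Orc5, of the origin recognition complex, had 4.51, 26.5 and 9.60. The remaining 3, for whose neighbours no strand was known, were nearest to or inside Trps1 (5.93, 40.9 and 20.3 CPM), Gpr151 (4.90, 23.8 and 8.16) and Cd74 (8.34, 39.7 and 14.8).

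**Figure D2:**
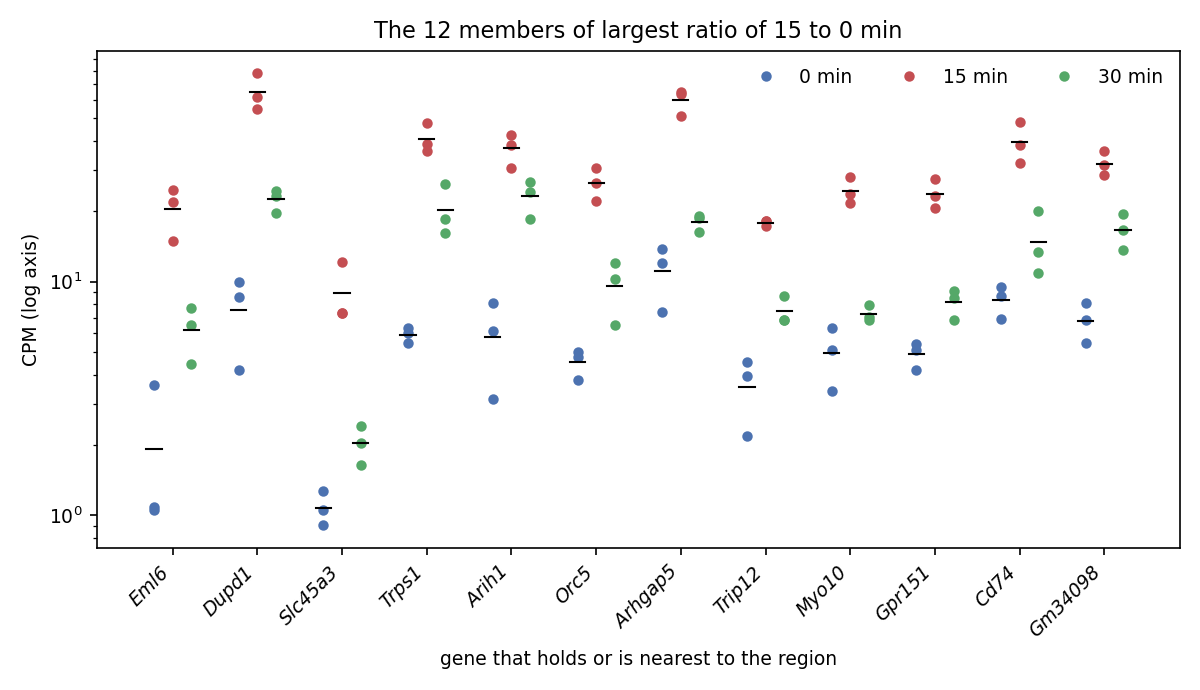
Each point is the CPM of 1 library (log axis) for the 12 members with the largest ratio of 15 to 0 min, named by the gene that holds or is nearest to them, and black bars are means of 3 libraries. The 15 min points lie above the others in all 12, as the rule requires. The 30 min points lie above the 0 min points in all 12, against 25.4% of all members, and the ranking favours low values at 0 min.

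The members with the highest levels were of several kinds. At the shared end of the linker histone gene H1f4 and its neighbour H2bc6 (chr13:23621487-23622086) the values were 252, 295 and 299 CPM at 0 min, 468, 468 and 499 at 15 min, and 233, 227 and 258 at 30 min. Its 30 min mean was 0.848 of the 0 min mean, so the gain was gone. H1f1 (chr13:23763155-23763754), whose promoter is printed above, went from 242, 277 and 236 CPM to 476, 403 and 385 and back to 247, 232 and 288.

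A region 4.24 kb from Rps20, which encodes a protein of the small ribosomal subunit, had 108, 143 and 136 CPM, then 424, 517 and 415, then 253, 242 and 299. It stood at 2.05 times its 0 min mean at 30 min, above all 3 libraries of 0 min. The region of the facing genes Vmp1 and Ptrh2 (chr11:86683654-86684253) had 120, 120 and 98.1 CPM, then 208, 175 and 196, then 126, 113 and 132, and overlapped with 0 min again at 30 min. In the histone cluster of chromosome 13 the H2ac1 and H2bc1 promoter window was much lower, at 9.24, 11.1 and 10.2 CPM, then 21.1, 16.3 and 12.7, then 5.56, 6.67 and 7.24. Here all 3 libraries at 30 min lay below all 3 at 0 min.

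Position was not used by the rule. A region was said to be at a gene end when its centre lay within 1 kb of an annotated end. Of the members 76 (13.8%) lay at gene ends, 170 (30.8%) inside genes and 306 (55.4%) outside genes. Among the other regions with enough reads these shares were 36.5%, 33.3% and 30.2%. At gene ends of known strand, 29 members lay at 5′ ends and 30 at 3′ ends, 38.2% and 39.5% of the 76, whereas 70.4% of the others at gene ends were at 5′ ends and 9.17% at 3′ ends. Regions are not independent replicates, and no test was made of these shares.

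The place most shared by members was the stretch just past the 3′ end of a protein-coding gene. In it, 2 to 10 kb beyond the nearest such end, lay 230 members (41.7%) and 3585 of the other regions (11.1%). The mirror image did not differ in this way: 2 to 10 kb upstream of a 5′ end lay 54 members (9.78%) and 9.87% of the others. Of all regions 2 to 10 kb past a 3′ end, 6.03% were members, against 1.68% overall. This share was 10.4% for those outside genes (123 members), 7.37% inside a gene (78) and 1.84% at a gene end (29). The last include starts of other genes, such as H1f1, so not all 230 are sites of a gene's end alone. The bin from 5 to 10 kb alone held 134 members (24.3%) and 6.98% of the others, while from 20 to 50 kb the order was turned, with 8.33% and 20.5%. Strand was known for 79.9% of 21887 coding genes and for none on chromosome 18, so a region past a gene of unknown strand was not counted there in either set.

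**Figure D3:**
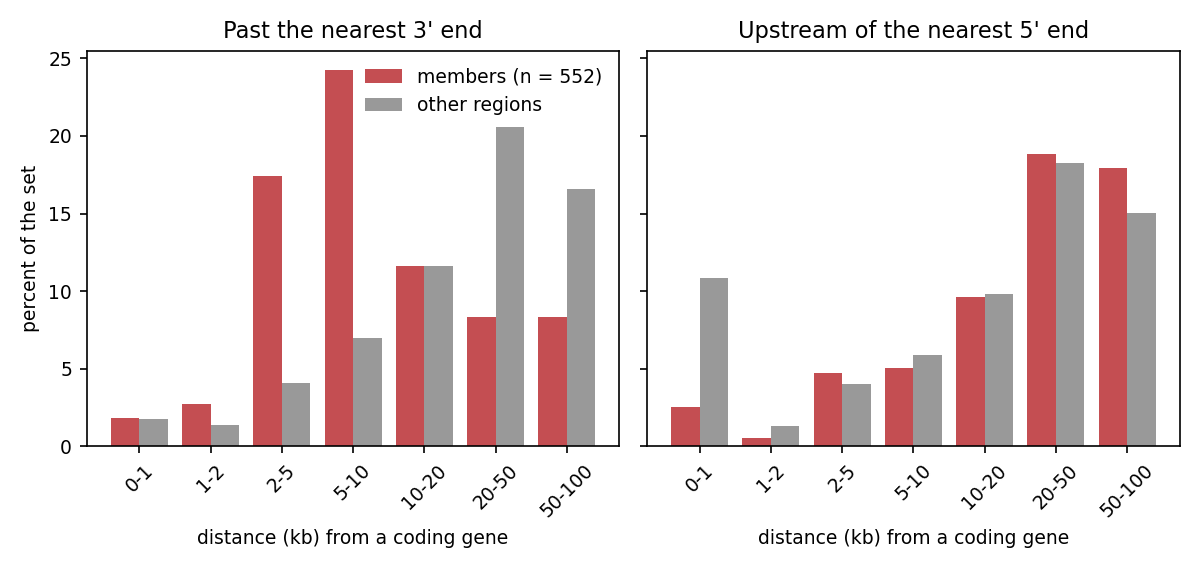
Bars give the percent of the 552 members (red) and of the other regions with a mean of at least 20 reads (grey) at each distance in kb past the nearest 3′ end (left) and upstream of the nearest 5′ end (right) of a coding gene. Members are most frequent at 2 to 5 kb (17.4%) and 5 to 10 kb (24.3%) past a 3′ end and show no such peak upstream of 5′ ends.

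The distance pattern was present at each level of starting signal. Among regions under 10 CPM at 0 min, 9.90% of those 2 to 10 kb past a 3′ end were members and 1.93% of those elsewhere. The shares were 7.14% and 0.754% at 10 to 20 CPM and 4.15% and 0.427% at 20 to 50 CPM. Above that they were 0.696% (5 of 718) and 0.214% (7 of 3268), which rest on few members. The level at 0 min is itself a value that the rule used. When the rule was changed, many of the same regions were taken: members made up 50.9% to 100% of each set, so these sets are not separate support. Between 30.1% (without 15 min library 3) and 56.0% (at least 2-fold to both times) of the regions taken under each of 16 other settings lay 2 to 10 kb past a 3′ end. The share among regions not taken was not computed for each setting.

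Genes with a member in this stretch were long, with a median of 46.8 kb against 16.8 kb for the genes before the other regions there. Inside genes of known strand, too, members lay toward the 3′ side: 68 of 134 (50.7%) were in the last 25% of the length of the gene they lay in, against 21.0% of 8465 other regions. Some lie past the end of another gene at the same time, as in Eml6 and Dupd1. Of all regions with enough reads that lay in the last 25% of a gene and under 20 kb past the end of another, 48 of 496 (9.68%) were members, against 39 of 1497 (2.61%) of those before it.

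**Figure D4:**
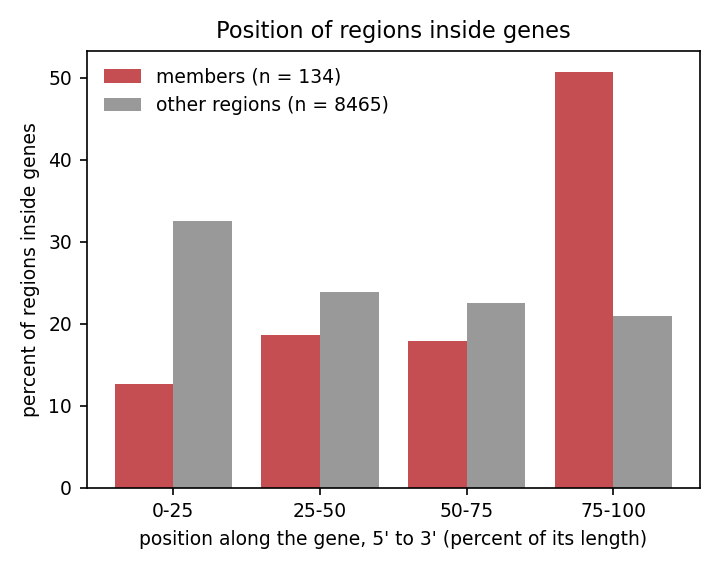
Bars give the percent of regions inside genes of known strand whose centre falls in each 25% of the gene's length, from the 5′ end (left) to the 3′ end (right), for 134 members (red) and 8465 other regions (grey). The last 25% holds 50.7% of the members and 21.0% of the others.

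The region that the divergent transcription model had drawn around each site was also wider for members, with a median of 1584 bp against 738 bp for the others, although all were counted in 600 bp. It was at least 1 kb wide in 347 members (62.9%) and in 33.5% of the others. The 230 members 2 to 10 kb past a 3′ end had a median width of 2209 bp, and the other 322 had 1052 bp. The 230 also stood higher at 0 min, with a median of 9.22 CPM against 5.55. Their median ratio of 15 to 0 min was 2.05 against 1.92 for the rest, and of 15 to 30 min 1.74 against 1.61.

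At Npepps, the gene of a cytosolic aminopeptidase, the member lay 5.29 kb past the end (chr11:97200251-97200850). It had 26.5, 23.5 and 27.0 CPM at 0 min, 72.4, 84.4 and 65.1 at 15 min, and 33.7, 33.0 and 33.2 at 30 min. The 5′ end of the same gene stood at 187 ± 10.8 CPM, 142 ± 11.2 and 167 ± 4.22 (mean ± SD, n = 3). At 15 min the 5′ end was lower and the far end higher.

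Tet2 encodes an enzyme that oxidises 5-methylcytosine and is active in embryonic stem cells. The member 4.94 kb past it (chr3:133458433-133459032) had 30.1, 35.5 and 46.7 CPM, then 80.1, 84.6 and 74.3, then 42.6, 42.6 and 42.1, while its 5′ end had 42.1 ± 2.41, 46.4 ± 2.07 and 46.6 ± 1.09 CPM. Past Rbpj, the DNA-binding factor of Notch signalling, the member at 8.68 kb had 44.2, 53.8 and 45.6 CPM, then 109, 125 and 98.8, then 79.1, 75.3 and 73.1. It returned only in part.

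At Ddi2, which encodes an aspartic protease, the member 6.79 kb past the end went from 39.1, 41.8 and 39.9 CPM to 87.8, 76.0 and 71.2 and then to 36.1, 30.6 and 34.3, below its start. Its 5′ end had means of 40.5, 32.4 and 37.5 CPM. The member 6.11 kb past Rcc2, which encodes a regulator of chromosome condensation, lies inside Padi6 and had 15.9, 22.6 and 18.1 CPM, then 79.1, 76.2 and 65.8, then 31.7, 26.0 and 34.6. Past Far1, which encodes a reductase of fatty acyl-CoA, the region at 8.96 kb had 5.26, 5.65 and 6.82 CPM, then 17.6, 14.4 and 12.7, then 6.11, 2.04 and 5.37, a full return.

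The 5′ ends of these genes are a separate measurement that the rule did not use. In 195 pairs of a member 2 to 10 kb past a 3′ end and a 5′ end of the same gene, the member's ratio of 15 to 0 min had a median of 2.05 and that of the 5′ end 0.858. Relative to the 5′ end, the member's level had a median of 34.3% at 0 min, 88.1% at 15 min and 41.0% at 30 min. The member's part of this rise and return was set by the rule, so it is a description only. Some pairs share the 5′ end of 1 gene, as at Cyp51 and Wwp2, and both windows have the same width. No lower limit was set on the level of a 5′ end. Those of Itih1 and Ccl28 had means of 0.257 and 0.823 CPM at 0 min, and their members stood at 1306% and 1024% of them. Some members of these pairs lie inside or at the start of another gene, as at Polr1c past Xpo5. Of 187 such 5′ ends tested, 4 (2.14%) were higher and 14 (7.49%) lower at 15 min by edgeR's quasi-likelihood test, with a median log2 change of -0.19. Over all tested regions of any kind 3.96% were lower. All 7957 tested 5′ ends of coding genes had 82 (1.03%) higher and 755 (9.49%) lower, with a median of -0.17, close to the genes ahead of members. The sign of these counts depends on the scaling. With factors set on gene ends alone, which move the median of all regions from 0.025 to 0.18, the 187 split into 7 higher and 6 lower with a median of -0.040. Without 15 min library 3 they split into 4 and 41.

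**Figure D5:**
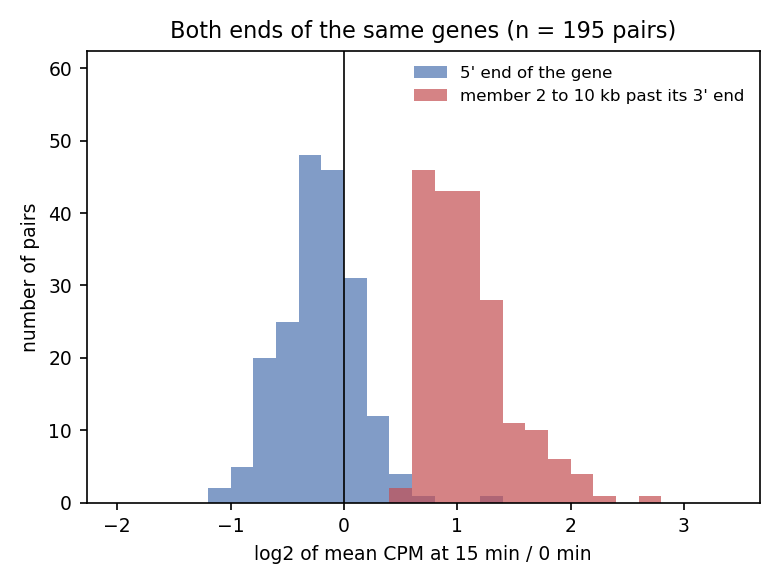
The histogram counts 195 pairs by the log2 ratio of mean CPM at 15 to 0 min, for the 5′ end of a gene (blue) and the member 2 to 10 kb past its 3′ end (red). Members lie to the right of 0 because the rule requires it, while the 5′ ends, which it did not use, centre left of 0 at a median ratio of 0.858.

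A wider set of gene ends was also counted. Of 532 genes that a member was inside of, at or nearest to, 277 had a tested region at an end that was no member. At 15 min 8 of these were higher and 19 lower (edgeR's quasi-likelihood test, adjusted over all regions), a median of -0.16, against 271 higher and 1207 lower of 15009 at all gene ends, also -0.16. With scaling on gene ends alone the split was 18 and 7. Leaving out 15 min library 3 gave 43 lower in place of 19, and leaving out 0 min library 1 gave 8. For 15 min libraries 1 and 2 it was 4 and 11. The 8 higher became 5 when 0 min library 1 was left out, and 4 for 0 min library 3 or for 15 min library 1 or 2.

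Members were mostly alone. Joined over gaps of at most 50 kb they formed 530 loci, 21 with at least 2 members and 1 with 3. The locus with 3, near Gm45924 on chromosome 15, spans chr15:38702995-38707350, and its members had ratios of 2.84, 2.64 and 2.13. Beside Cyp51, which encodes a demethylase of sterol synthesis, a pair lay 3.74 and 8.21 kb past the end of the gene. Past Wwp2, another HECT-type ubiquitin ligase, a pair lay 2.83 and 9.30 kb beyond the end, with ratios of 1.89 and 3.93. Pairs past 1 gene are not independent.

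Regions near members that the rule left out were also tested. Of 619 tested regions that lay within 10 kb of a member without overlapping its window, 73 (11.8%) were higher at 15 than at 0 min by edgeR's quasi-likelihood test, against 4.29% of all tested regions, and the median log2 change was 0.27. Within 5 kb it was 46 of 306 (15.0%, median 0.41) and within 20 kb 101 of 1086 (9.30%, median 0.18). Leaving out 0 min library 1 gave 31 in place of 73, and leaving out 15 min libraries 1, 2 and 3 gave 44, 33 and 88. DESeq2's Wald test gave 48. From 15 to 30 min, 6 of the 619 (0.969%) were lower, against 0.49% of all, and the median was -0.14. That count was 2 when 30 min library 1 or 2 was left out and 3 for 15 min library 1 or 2. It was 10 for 0 min library 2 and 11 for 15 min library 3.

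Past the same 3′ ends, the change of other regions differed with distance. In the first 2 kb the medians of 16 tested non-members were 0.22 at 15 min and -0.30 from 15 to 30 min. Of 24 tested non-members 2 to 5 kb past the end of a gene with a member, 7 (29.2%) were higher at 15 min. Over all tested non-members at this distance past a 3′ end, 5.55% were higher. The median log2 change of the 24 was 0.86, then -0.51 from 15 to 30 min. At 5 to 10 kb the medians were 0.22 and -0.18 over 65 regions, and 9.23% were higher at 15 min. At 10 to 20 kb the medians were 0.088 and -0.058 over 192, and 8.33% were higher. Over all tested non-members at these 2 distances 5.15% and 4.27% were higher. At 20 to 50 kb the medians were -0.089 and -0.0074 over 310. The medians were thus largest at 2 to 5 kb and not nearest to the gene, where they rest on 16 regions. The regions share genes and libraries, so no test of the trend was made. The genes were chosen for having a member. Windows that overlap a member's window were not left out here, so reads may be shared with members that the rule chose.

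Genes of the machinery that ends and cleaves transcripts were examined at their own ends. Over all tested regions 4.29% were higher and 3.96% lower at 15 min, and over those at gene ends 1.81% and 8.04%, which the counts below are to be read beside. Of 28 measured genes of 3′ end processing and termination, 1 was higher and 0 lower at 15 min (edgeR's quasi-likelihood test, adjusted over all regions, in which 12586 of 54299 had an unadjusted p under 0.05), with a median log2 change of 0.032 against 0.025 for all regions. Over all tested regions at gene ends, the like set for this and the list medians below, the median was -0.16. The 1 was Ppp1r10, whose product recruits a phosphatase to polymerase at the end of genes (199 ± 22.4 CPM, 259 ± 29.8 and 229 ± 4.86; log2 0.41 ± 0.10 SE, adjusted p = 0.0148). Pcf11, a cleavage and termination factor, had a log2 change of -0.37 ± 0.14 that missed the threshold (adjusted p = 0.111). A region 14.2 kb past Papola, the poly(A) polymerase gene, was itself a member, at 31.5, 37.7 and 34.9 CPM, then 66.6, 72.4 and 67.0, then 33.0, 36.0 and 36.9. Another was 5.43 kb past Fip1l1, of the cleavage and polyadenylation complex, with means of 5.19, 12.4 and 8.76 CPM.

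The Integrator complex cleaves RNA at snRNA and enhancer transcripts. Of 14 measured genes 1 was lower at 15 min, Ints10 (48.1 ± 6.64 CPM, 34.1 ± 4.45 and 43.7 ± 2.48; log2 -0.46 ± 0.14 SE, adjusted p = 0.0421), and the median of the list was -0.098. A member lay 4.10 kb from Ints10, at 6.34, 3.84 and 4.46 CPM, then 11.2, 16.0 and 11.8, then 6.67, 3.52 and 5.37. Of 25 pausing and elongation genes, Tcea1, an elongation factor gene, was higher (log2 0.33 ± 0.10 SE, adjusted p = 0.0384), and Aff1 and Cdk9, of the machinery that releases paused polymerase, were lower (-0.46 ± 0.13 and -0.46 ± 0.14, adjusted p = 0.0242 and 0.0433). With scaling on gene ends the medians of both lists turned from -0.098 and -0.11 to 0.058 and 0.046.

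Of 14 immediate early genes, which respond to stimuli within minutes, 2 were lower at 15 min, Zfp36 and Nr4a1 (log2 -0.74 ± 0.18 and -0.90 ± 0.22 SE, adjusted p = 0.00901 and 0.0109), while the median of the list was 0.15. A member 6.55 kb past Fosb had means of 6.47, 10.2 and 7.20 CPM. Of 23 pluripotency genes, 3 were higher, Id3, Nr0b1 and Prdm14 (log2 1.03 ± 0.14, 0.50 ± 0.12 and 0.38 ± 0.11 SE, adjusted p = 3.99e-05, 0.00671 and 0.0274), and the median of the list was 0.013. Id3, a target of BMP signalling, stayed up at 64.5 ± 6.40 CPM at 30 min, after 30.1 ± 4.68 at 0 min and 60.0 ± 2.42 at 15 min. Of 11 heat shock regions 1 was lower, that of the co-chaperone gene Stip1 (log2 -0.68 ± 0.14 SE, adjusted p = 0.00225), with a list median of -0.14. Of the gene-end regions named for these lists, none was a member.

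Members were found on every chromosome analysed, at 0.665% of the regions with enough reads on chromosome 17 to 2.27% on chromosome 13. On the X chromosome, where Firre lies, there were 12 (1.10%). One of these was the 5′ end of Rlim, a ubiquitin ligase gene of X inactivation, at 8.70, 8.58 and 9.70 CPM, then 13.7, 10.6 and 17.5, then 10.0, 9.82 and 9.58. The largest ratio there was 2.58, inside Map3k15 and 9.41 kb past Pdha1, of pyruvate dehydrogenase. Of tRNA, snRNA, snoRNA and miRNA genes, 0 lay under a member, where 0.479% of the other regions covered a tRNA gene. Windows of 45 members (8.15%) overlapped another window, against 16.7% of the others, and with such windows left out 507 members remained.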

How the data were processed

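PRO-seq was measured in 9 libraries, 3 at each of 0, 15 and 30 min. The authors deposited raw read counts in 174289 regions of 600 bp, and 2 region lists whose other values are starts and ends on mm10. Per the submitters' processing notes, HISAT2, featureCounts and DESeq2 1.26.0 were used, and the file names name Tfit and muMerge. The strand counted is not given in the sources used here. The totals, 3813365 to 5980366, are reads in regions and not sequenced depth. Sampling noise alone did not account for differences between replicate libraries (chi-squared per degree of freedom 2.17 to 3.53), and their number limits precision.

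Counts were tested in R 4.3.3 with edgeR 4.0.16 (quasi-likelihood test, default expression filter, 54299 regions kept, TMM factors, all 9 libraries in 1 fit, Benjamini-Hochberg over all kept regions, called at 0.05). CPM uses library totals. Genes came from RefSeq on GRCm38.p6, the assembly of mm10, and strands from its promoter table. Alternatives were DESeq2 1.42.0, other scalings and filters, a replicate block, other limits of the rule and each library left out.

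Named regions are the members with the 12 largest ratios of 15 to 0 min, the 8 highest at 15 min, the 6 largest ratios of 15 to 30 min, the 8 highest at gene ends, those of the 6 fullest loci, those near listed genes and those at the limits of the rule, and for each list the 3 genes of smallest p; not all are printed. Members past 3′ ends, Rlim, Map3k15, Tet2, Npepps, Rbpj, Ddi2 and Rcc2 were picked after their values were seen, as was the distance past 3′ ends. The members and lists were chosen with earlier results of these data known.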

Additional observations from a re-analysis of the deposited data

How the results depend on the processing

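Other settings moved counts, and scaling on gene ends also turned some directions. These were the split at the ends of the members' genes and the medians of the Integrator and pausing lists. The rule took 846 regions with a mean of at least 10 reads, 273 with at least 50, 91 with at least 2-fold to both times and 981 without 15 min library 3. With 1 library left out it took 544 to 981 regions. Members called higher at 15 against 0 min were then 303 to 419, lower at 30 against 15 min 90 to 201, and higher at 30 against 0 min 7 to 42 (50 with scaling on gene ends). Neighbours higher at 15 min were 31 to 88, 48 with DESeq2 and 46 within 5 kb. Neighbours lower at 30 min were 2 to 11, and 10 with no filter. At the ends of the members' genes 4 to 10 regions were higher and 4 to 43 lower, or 18 and 7 with scaling on gene ends. Over all regions, calls were 2123 to 6412 at 15 against 0 min, 154 to 548 at 30 against 15 min and 171 to 1510 at 30 against 0 min. The log2 changes of the 42 named members at 15 min were counted in pairs of 1 member and 1 other setting. In 14 pairs the call was lost and in 658 it was not. The member 5.40 kb past H2bc15 was not called in the fit reported, so it had no call to lose. The share of members at gene ends was 8.33% with a limit of 500 bp, 21.6% with 2 kb and 8.79% for the 2-fold rule, and 3 loci held at least 3 members when joined over 100 kb. The median of the Integrator list became 0.058 and that of the pausing list 0.046 with scaling on gene ends, and the latter was between -0.30 and -0.030 with 1 library left out (-0.30 without 15 min library 3). The causes were not tested.

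With the replicate number as a block, 435, 203 and 34 members were called in the 3 comparisons, and 76 neighbours were higher at 15 min. Deviations of same-numbered libraries correlated at -0.05 to 0.18 and those of differently numbered libraries at -0.20 to 0.10. Whether the numbers pair the libraries is not known. Few reads limit single members, since the median member had 49.2 reads a library.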
